A study of Mus musculus with 12 samples.

Results

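The liver transporters that move bile acids and other organic anions into and out of hepatocytes were followed here in 12 mouse livers. The set holds 10 genes, chosen by their names in the deposited tables out of 57180 genes, and 9 of the 10 passed the filter on low counts that left 19350 genes to test. Slc10a1, Slco1a1, Slco1a4 and Slco1b2 encode uptake carriers. Abcb11 and Abcc2 encode pumps of the canalicular membrane, which faces bile. Abcc3, Abcc4, Slc51a and Slc51b encode exporters of the basolateral membrane, which faces blood.

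The livers came from a study of an AAV9 vector carrying human CSA cDNA in mice that model Cockayne syndrome, a disease of DNA repair and transcription. Each sex gave 3 livers labelled Het and 3 labelled KO, and bulk RNA depleted of ribosomal RNA was sequenced. All 12 mice lacked Csa (Csa-/-, listed as Ercc8 in the annotation) and all had received the vector, with its chicken beta-actin promoter, by injection into the brain ventricles as newborns. Het mice were Csa-/- Xpa+/- littermates without signs of disease, matched to the KO mice in age. KO mice were taken at their humane endpoint, with a severely hunched posture and tremor. Their exact ages are not given in the sources used here. For the KO mice, Csa-/- Xpa+/+ stands on the labels and in the sequencing methods, but the mouse procedures of the study name them CX mice, Csa-/- Xpa-/-, and so Het and KO are used below as the names on the labels. Xpa lay between 3.10 and 6.34 CPM (counts scaled to library size by TMM) in Het livers and between 0.992 and 1.83 CPM in KO livers. Ercc8 lay between 5.10 and 8.68 CPM in Het livers and between 14.8 and 34 CPM in KO livers. Genotype and disease stage moved together in this design and cannot be told apart.

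Hepatocytes clear bile acids from portal blood, mainly through the sodium-dependent carrier NTCP (Slc10a1), and take up bilirubin, hormones, drugs and unconjugated bile acids through the sodium-independent OATP carriers of the Slco1 family. The canalicular ATP-driven pumps BSEP (Abcb11) and MRP2 (Abcc2) then secrete conjugated bile acids and conjugated organic anions into bile. MRP3 (Abcc3), MRP4 (Abcc4) and the heterodimer OSTalpha/OSTbeta (Slc51a and Slc51b) return them to blood, a route that is little used in healthy mouse liver. FXR (Nr1h4), the nuclear receptor for bile acids, binds inverted repeats of its half-site as a dimer with RXR, and STAT5, the transcription factor activated by growth hormone, binds the GAS element.

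Letters of these elements were looked for on both strands of the RefSeq promoter windows, each 250 bases before to 50 after a transcription start, in which 9 of the 10 members had 11 windows (RefSeq, GRCm38.p6). The inverted repeat with relaxed half-sites (GGNCA, any 1 base, TGNCC) was present in the windows of Abcb11 and Slco1b2 and in 0.676% of all 32851 windows. The GAS letters TTCNNNGAA were present in windows of Slc10a1, Slco1b2, Slc51b and Abcc4 and in 8.3% of all windows. The letters TGACNNNGC of the antioxidant response element were present in windows of Abcc2 and Abcc4 and in 12.4% of all windows. The stricter inverted repeat (GGTCA, any 1 base, TGACC), which is contained in the relaxed one, the direct repeat of AGGTCA spaced by 1 base and the HNF4 letters CAAAGTCCA were in none of the members' windows. The sites below are shown because Abcb11 and Slco1b2 were both lower in KO livers, whereas Slc10a1 was lower and Slc51b higher. Capitals mark the matched letters, with 9 flanking bases on either side, read 5′ to 3′ along the gene's strand and placed on GRCm39.
Abcb11, inverted repeat, chr2:69173003-69173031, minus strand: tggactttaGGCCATTGACCtataagcaa
Slco1b2, inverted repeat, chr6:141575148-141575176, plus strand: atttgtgtaGGACAGTGACCtgaagagat
Slc10a1, GAS, chr12:81015515-81015541, minus strand: ctcacttccTTCTCTGAAgtctctcaa
Slc51b, GAS, chr9:65330103-65330129, minus strand: caactgcatTTCTCGGAAgagttcctg
The matches of Abcb11 and Slco1b2 began 62 and 87 bases before the RefSeq start. In the GENCODE M39 annotation, the Abcb11 and Slc51b sites lie within 5′ UTR exons of longer transcripts of these genes, the Slco1b2 site lies in an exon of the non-coding gene Gm67350, and the Slc10a1 site lies in no exon. A match of letters is a description of the sequence, and no binding was measured.

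The libraries held between 30044812 and 43634073 counts assigned to genes. Within each group every pair of livers differed by more than sampling noise, so all 12 were counted as separate samples. The sources do not say how the mice are related beyond being littermates. The tissue was liver by its markers, with Alb at 35120 CPM or above in every Het liver and 55070 CPM or above in every KO liver, and of 7 hepatocyte markers only Ttr fell. Markers of 8 other cell types are given with the results they bear on. In bulk RNA, fewer cells of a type and less RNA per cell cannot be told apart.

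Across both sexes, 7 of the 9 tested transporters differed between KO and Het livers (adjusted p under 0.05, edgeR quasi-likelihood test over all genes), 3 higher and 4 lower, against a background of 22.4% of tested genes called (12.2% up and 10.2% down). The uptake genes Slco1a1, Slco1b2 and Slc10a1 and the canalicular pump gene Abcb11 fell. The basolateral exporter genes Abcc4 and Slc51b and the uptake gene Slco1a4 rose. Abcc2 and Abcc3 were not called. The 6 KO livers did not overlap the 6 Het livers for 4 genes that were lower and for 1 that was higher, against 4.64% and 4.72% of all tested genes.

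**Figure D1:**
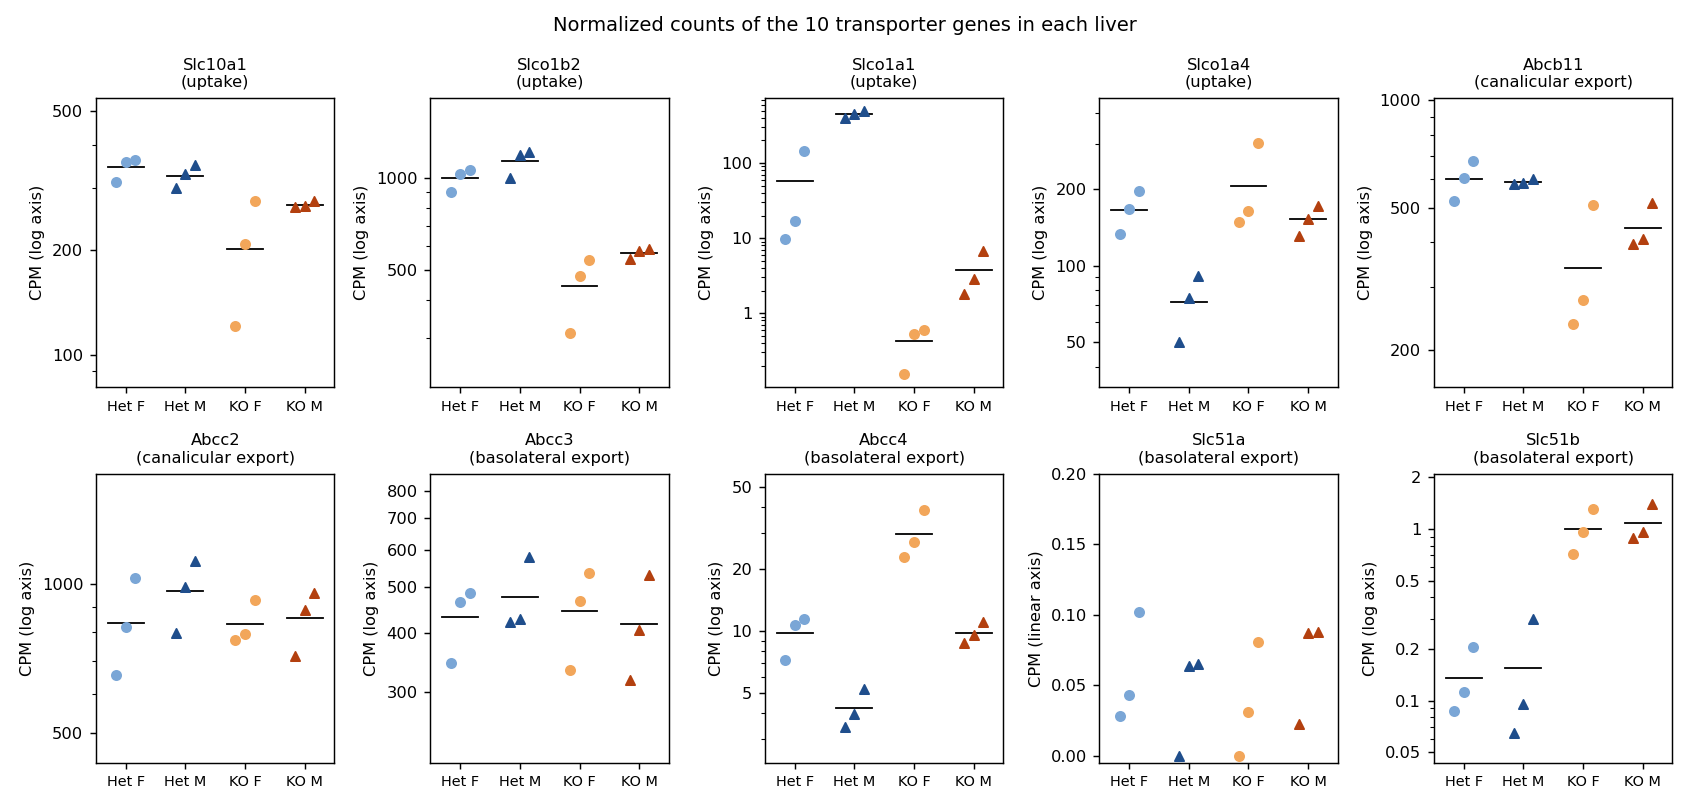
CPM values (TMM) of the 10 transporter genes in each liver, on log axes except for Slc51a. Each point is a liver (circles, females; triangles, males) and each bar the mean of 3 livers. KO livers lie below all Het livers for Slc10a1, Slco1b2, Slco1a1 and Abcb11 and above all of them for Slc51b.

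Slco1a1 (ENSMUSG00000041698.12, chr6:141853007-141892690, GRCm39, minus strand) encodes OATP1A1, a sinusoidal carrier of steroid conjugates and other anions that is male-predominant in mice. Het males had 397, 444 and 492 CPM. Het females had 9.69, 17.0 and 146 CPM, so that Het_F_126 stood 8.59 times above the next female. KO males had 1.80, 2.88 and 6.73 CPM and KO females 0.155, 0.526 and 0.590 CPM. The highest KO liver was a male, and the lowest Het liver, a female, still lay 1.44 times above it. KO against Het, the log2 fold change was -6.87 (SE 0.808, adjusted p = 0.000586, 117-fold lower), with nearly the same estimate in females (-6.90, adjusted p = 0.00943) and in males (-6.85, adjusted p = 0.00796). Without Het_F_126 it was -5.83 in both sexes together and -4.80 in females. In the females alone, 5 to 22 counts remained in a KO liver.

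Slco1b2 (ENSMUSG00000030236.11, chr6:141575179-141633546, plus strand) encodes OATP1B2, the main hepatic carrier of unconjugated bile acids and bilirubin conjugates. Het females had 900, 1029 and 1067 CPM and Het males 1003, 1191 and 1219 CPM. KO females had 312, 479 and 540 CPM and KO males 544, 580 and 587 CPM. Every KO liver lay below every Het liver in both sexes. The log2 fold change was -1.08 (SE 0.135, adjusted p = 0.000385), or 2.12-fold lower, and it was called in females (-1.17, adjusted p = 0.00539) and in males (-0.996, adjusted p = 0.0108). The call held in every alternative tried.

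Slc10a1 (ENSMUSG00000021135.9, chr12:80996372-81015479, minus strand), the gene of NTCP, was lower by a smaller factor. Het females had 314, 357 and 363 CPM and Het males 299.97, 329 and 350 CPM. KO females had 121.6, 208 and 275 CPM and KO males 265, 266 and 277 CPM. The genotypes did not overlap, but KO_F_108 was far below the other KO livers. This gave a log2 fold change of -0.52 (SE 0.160, adjusted p = 0.0345, 1.44-fold lower). In females it was -0.77 (adjusted p = 0.0484) and in males -0.28 (adjusted p = 0.496, 95% interval -0.77 to 0.21). The call over both sexes was lost when any 1 of 8 mice was left out, with adjusted p between 0.0553 and 0.0646. Those mice were Het_F_111, Het_F_115, Het_M_119, Het_M_137, KO_F_112, KO_M_118, KO_M_122 and KO_M_136. Without KO_F_108 this call held. The females' call was lost when any mouse other than KO_F_123 was left out (11 of 12 omissions, adjusted p up to 0.103). It was also lost when each library had to hold 10 or more reads of a gene (adjusted p = 0.0517). The same held with scaled estimated counts (adjusted p = 0.0568) and with the older quasi-likelihood method of edgeR (adjusted p = 0.0532).

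Slco1a4 (ENSMUSG00000030237.15, chr6:141751165-141802036, minus strand) encodes OATP1A4, a carrier of cardiac glycosides and steroid conjugates that hepatocytes and endothelial cells express and that is female-predominant in mouse liver. Het females had 133, 167 and 198 CPM and Het males 49.99, 75.0 and 90.8 CPM. KO females had 148, 165 and 305 CPM and KO males 131, 153 and 172 CPM. All 3 KO males lay above all 3 Het males, whereas the females of the genotypes overlapped. Slco1a4 had a log2 fold change of 0.69 over both sexes (SE 0.201, adjusted p = 0.0283), 1.08 in males (adjusted p = 0.0416) and 0.31 in females (adjusted p = 0.506). The difference between the sexes in this effect was 0.77 and was not called (95% interval -0.10 to 1.64, adjusted p = 0.576). Without KO_F_108 the log2 fold change was 0.48 (adjusted p = 0.0523), and the call was also lost without Het_F_111, Het_F_126, Het_M_125, Het_M_137, KO_M_118 or KO_M_136 and without the filter on low counts (adjusted p = 0.0527). The males' call was lost without Het_F_111 or any 1 of the 6 males (adjusted p up to 0.153), without the filter (adjusted p = 0.0756) and with scaled estimated counts (adjusted p = 0.0513). Of 6 sinusoidal endothelial markers 3 fell, with a summed level of 162 to 299 CPM among Het livers and 118.3 to 206 CPM among KO livers, and their part in the value of Slco1a4 was not tested.

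These 3 Slco1 genes lie in a cluster of 8 Slco1 genes over 799 kb of chromosome 6. Slco1a1 and Slco1a4 are neighbours on the minus strand, and they moved in opposite directions in KO livers. Of the 31-base words of Slco1a1 transcripts, 3.97% also occurred in protein-coding transcripts of other genes, mostly Slco1a4, Slco1a5 and Slco1a6, and 3.67% for Slco1a4, so a small part of their reads could be assigned to either. No word of Slco1b2 was shared. Among the other genes of the cluster, Slco1c1 reached at most 17 counts in any liver (log2 fold change 0.74, adjusted p = 0.075), Slco1a6 at most 7 counts and Slco1a5 at most 1 count. Slco1a7 and Slco1a8, placed in the cluster by GENCODE M39, were not found under these names in the deposited counts. Their levels are not given.

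The BSEP gene Abcb11 (ENSMUSG00000027048.17, chr2:69068544-69173315, minus strand), whose product is the rate-limiting pump for bile acids entering bile, fell. Het females had 523, 605 and 677 CPM and Het males 582, 587 and 600.0 CPM. KO females had 235, 275 and 508 CPM and KO males 394, 409 and 516 CPM. The genotypes did not overlap, but the highest KO male and the lowest Het female were close. Abcb11 had a log2 fold change of -0.62 (SE 0.174, adjusted p = 0.0244, 1.54-fold lower). In females it was -0.82 (adjusted p = 0.0513) and in males -0.42 (adjusted p = 0.324, 95% interval -0.96 to 0.11). KO_F_123 stood well above the other KO females, and without it the females' value was -1.25 (adjusted p = 0.00246). With any 1 mouse left out, this value ran from -1.25 to -0.64, with edgeR adjusted p up to 0.147. No other omission gave a call in females. The females' difference was also called by DESeq2 (adjusted p = 0.0155), by limma on log2(TPM + 1) (adjusted p = 0.0267) and on log2(TPM + 0.1) (adjusted p = 0.0244), with scaling by library size only (adjusted p = 0.0495) and with unrounded counts (adjusted p = 0.048). The call over both sexes was lost without KO_F_112, KO_M_118 or KO_M_136 (adjusted p 0.0534 to 0.0546).

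The other canalicular gene, Abcc2 (ENSMUSG00000025194.6, chr19:43770631-43829179, plus strand), encodes MRP2, which exports glutathione and glucuronide conjugates. Its Het livers ran from 654 to 1112 CPM with a median of 902 CPM, and its KO livers from 717 to 959 CPM with a median of 838 CPM. The genotypes overlapped throughout. The log2 fold change was -0.09 (SE 0.138, adjusted p = 0.677), and its 95% interval of -0.39 to 0.21 bounds the change within these data.

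Slc51b (ENSMUSG00000053862.7, chr9:65319995-65330597, minus strand) encodes OSTbeta, the smaller subunit of the bile acid exporter of the ileum, and a known target of FXR. Het females had 4, 4 and 8 counts and Het males 2, 3 and 9 counts. KO females had 23, 31 and 49 counts and KO males 33, 39 and 48 counts. In CPM, Het livers lay between 0.0651 and 0.300 and KO livers between 0.712 and 1.40, with no overlap. The fitted log2 fold change was 2.46 (SE 0.297, adjusted p = 0.00033), 2.48 in females (adjusted p = 0.00583) and 2.44 in males (adjusted p = 0.00677). The fit draws low counts towards 0, and the log2 ratio of the mean CPM values was 2.85. Its level stayed far below those of Slc10a1, Slco1b2 and Slco1a4 in both genotypes, at a mean of 1.34 ± 0.345 TPM in KO livers (SD, n = 6). The partner gene Slc51a (ENSMUSG00000035699.9, chr16:32293322-32306842, minus strand) did not pass the filter, with 0 to 4 counts in Het and 0 to 3 in KO livers, and no fold change is given. It had 0 counts in Het_M_119 and in KO_F_108, which allows up to 3 counts there.

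Cholangiocytes also express transporters of this group, so 12 of their markers were examined beside Slc51b. Tspan8 rose, Pkhd1 fell and the other 10 were not called. Their summed level was 129 to 174 CPM in Het females, 119.4 to 170 in Het males, 120 to 152 in KO females and 142 to 157 in KO males. These ranges overlapped between genotypes, and the part of these cells in the value of Slc51b was not tested. Krt19 (at most 53 counts) and Epcam (at most 85 counts) were low in all livers.

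Abcc4 (ENSMUSG00000032849.15, chr14:118720103-118943924, minus strand) encodes MRP4, which exports bile acids together with glutathione. Het females had 7.28, 10.7 and 11.5 CPM and Het males 3.44, 3.97 and 5.24 CPM. KO females had 22.8, 27.3 and 38.9 CPM and KO males 8.72, 9.63 and 11.1 CPM. Within each sex all KO livers lay above all Het livers, but KO males overlapped Het females. The log2 fold change was 1.40 (SE 0.168, adjusted p = 0.000315, 2.64-fold higher), with 1.59 in females (adjusted p = 0.00366) and 1.21 in males (adjusted p = 0.0124). The males' call was lost without Het_M_119 (adjusted p = 0.0559) or Het_M_137 (adjusted p = 0.0534) and with limma on log2(TPM + 1) (adjusted p = 0.0815). Of 6 Kupffer cell and macrophage markers, 4 rose, and their summed level was 197 to 248 CPM in Het females, 89.8 to 124 in Het males, 258 to 419 in KO females and 133 to 379 in KO males. Their part in the value of Abcc4 was not tested.

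Abcc3 (ENSMUSG00000020865.17, chr11:94233874-94283823, minus strand) encodes MRP3, an exporter of glucuronides that was by far the most abundant basolateral exporter in these livers. Het livers ran from 346 to 580 CPM with a median of 447 CPM and KO livers from 318 to 535 CPM with a median of 436 CPM. The groups overlapped throughout. Its log2 fold change was -0.07 (SE 0.165, adjusted p = 0.787, 95% interval -0.43 to 0.29).

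**Figure D2:**
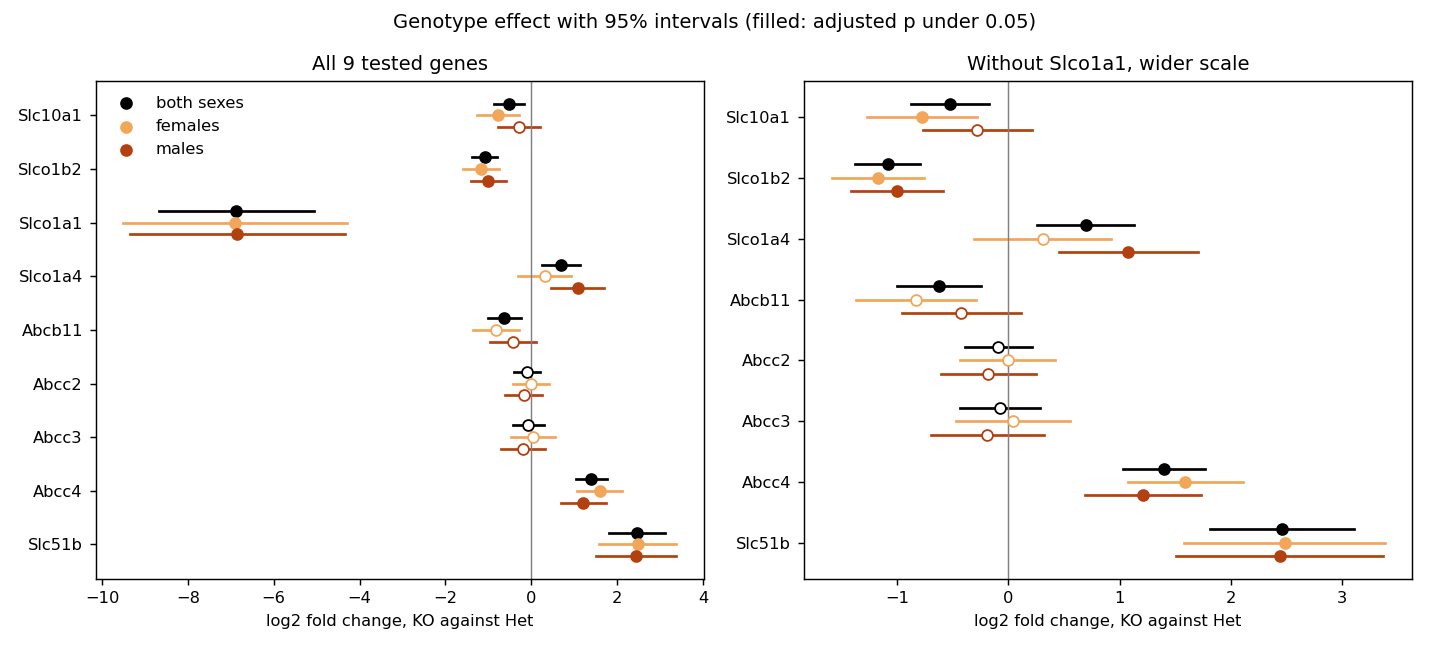
Log2 fold change of KO against Het livers with 95% intervals from the edgeR fit for the 9 tested genes, over both sexes and in each sex. The right panel repeats the genes other than Slco1a1 on a wider scale. Filled points have an adjusted p under 0.05, and Slco1a1 at -6.87 and Slc51b at 2.46 mark the ends of the range.

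In females alone, 5 of the 9 genes were called, 2 higher (Abcc4 and Slc51b) and 3 lower (Slco1a1, Slco1b2 and Slc10a1), against a background of 11% (5.94% up and 5.1% down). In males alone, 5 were called as well, 3 higher (Slco1a4, Abcc4 and Slc51b) and 2 lower (Slco1a1 and Slco1b2), against a background of 7.45% (4.47% up and 2.98% down). Livers of the same sex did not overlap between genotypes for 4 lower and 2 higher genes in females (background 14.7% and 15.8%) and for 4 lower and 3 higher genes in males (background 15.4% and 16.8%). Slco1a1, Slco1b2, Abcc4 and Slc51b were called in both. Slc10a1 in one sex and Slco1a4 in the other are not thereby shown to differ between the sexes. The interaction of genotype and sex was called for 0 of the 9 genes by edgeR and by DESeq2, where 0.0465% of all tested genes were called by edgeR, and the smallest unadjusted p among the 9 was 0.0789, for Slco1a4.

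Sex itself was called for 1 of the 9 genes, where 1.02% of all tested genes were called and 0.506% were called lower in males. Abcc4 was lower in males by 1.40 on the log2 scale (SE 0.168, adjusted p = 0.00208), with means 2.33 times higher in females among Het livers and 3.02 times higher among KO livers. Slco1a1 had means 7.72 times higher in males among Het livers and 8.97 times higher among KO livers, with a log2 difference of 2.97 that was not called (adjusted p = 0.0938). Without Het_F_126 this difference was 4.01 (adjusted p = 0.00152). Slco1a4 had a mean 2.31 times higher in females among Het livers and 1.35 times among KO livers, with a log2 difference of -0.82 (adjusted p = 0.0885). By DESeq2, the sex differences of Slco1a1 (adjusted p = 0.000329) and Slco1a4 (adjusted p = 0.00677) were called too.

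Levels of different genes can be compared in TPM, which accounts for transcript length. In Het livers of both sexes Slco1b2 was the highest of the 10 genes, at 260.0 ± 20.4 TPM in females and 262 ± 16.4 TPM in males (SD, n = 3), without overlap with Abcc2 in the next place. In KO livers Abcc2 was the highest, at 154 ± 32.5 TPM in females and 171 ± 45.0 TPM in males. It did not overlap Slco1b2 in KO females (107.8 ± 22.7 TPM) but did in KO males (135.6 ± 3.94 TPM). The gap in KO females was very narrow, with Abcc2 at 131.9 TPM in KO_F_112 and Slco1b2 at 131.6 TPM in KO_F_123. Abcc2 and Slc10a1 overlapped in Het females (184 ± 30.2 and 176 ± 14.8 TPM) and did not in Het males (175 ± 11.9 and 143 ± 12.1 TPM). Slco1a1 stood in the fourth place in Het males (89.3 ± 11.8 TPM), overlapping Abcb11 (83.4 ± 5.78 TPM), and in the seventh in Het females (13.3 ± 17.6 TPM). It stood in the ninth place in both KO groups, below Slc51b, with overlap in KO males. From Slco1b2 down to Abcb11 in KO females, each gene overlapped its neighbour, and in KO males Slco1b2 overlapped Slc10a1, Abcc3 overlapped Abcb11 and Abcc4 overlapped Slc51b. Abcc4 stayed at 7.23 TPM or less in every liver.

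The summed TPM of the 4 uptake genes separated the genotypes. It was 510 ± 15.7 in Het females and 518 ± 4.52 in Het males, against 283 ± 36.7 for the KO females and 317 ± 8.97 for the KO males (SD, n = 3). No KO liver exceeded 325 TPM and no Het liver fell below 495 TPM. For the 2 canalicular genes the sum was 283 ± 17.4 and 258 ± 17.3 TPM in Het females and males and 207 ± 32.4 and 237 ± 36.9 TPM in KO females and males, with overlap between genotypes in males. The basolateral sum, which is mostly Abcc3, overlapped throughout, at 61.0 to 84.2 TPM in Het and 51.7 to 99.4 TPM in KO livers. The ratio of the uptake sum to the canalicular sum ran from 1.76 to 2.12 among Het livers and from 1.20 to 1.57 among KO livers, and its ratio to the basolateral sum ran from 6.26 to 8.27 and from 2.80 to 5.70. All 6 KO livers lay below all 6 Het livers in both ratios. These sums are a description of the members and were not tested.

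**Figure D3:**
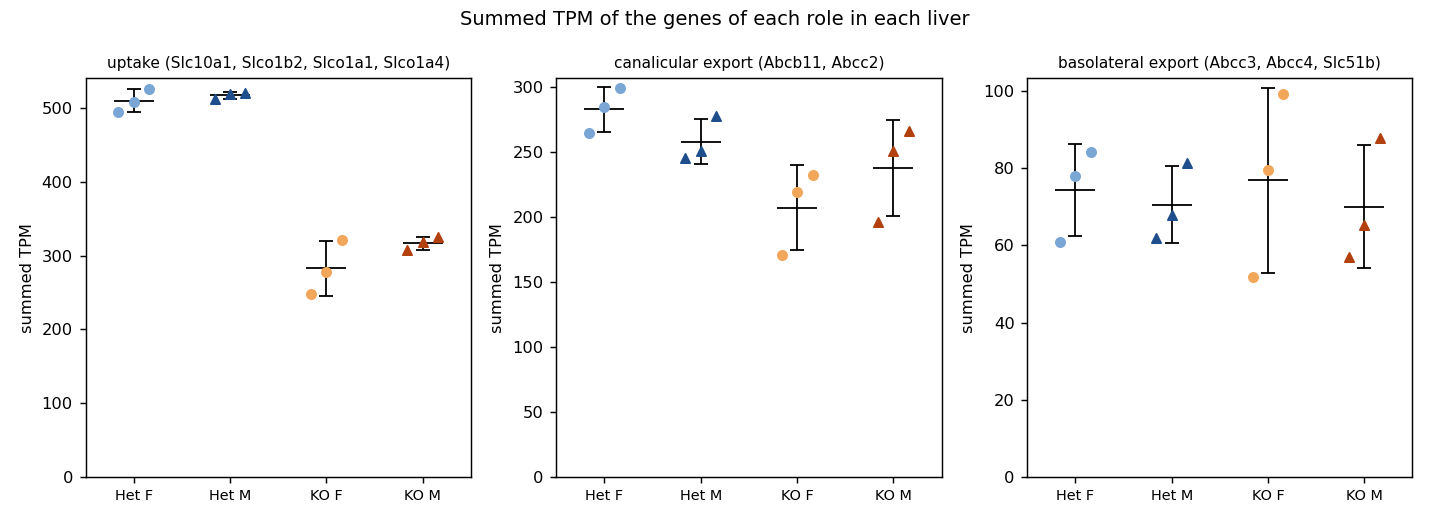
Summed TPM of the uptake, canalicular and basolateral genes in each liver (points; circles, females; triangles, males), with the mean and SD of each group of 3. The uptake sum is 495 TPM or more in Het and 325 TPM or less in KO livers, while the basolateral sums overlap.

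As a mean of log2 CPM, which weights the genes of a role equally, the difference between KO and Het was -1.89 for uptake, -0.37 for canalicular export and 1.28 for basolateral export. The uptake value rests mostly on Slco1a1 (log2 fold change -6.87), beside -1.08 for Slco1b2, -0.52 for Slc10a1 and 0.69 for Slco1a4. The basolateral value rests on the low genes Slc51b (2.46) and Abcc4 (1.40), while the abundant Abcc3 had -0.07. On log2(TPM + 1) the role differences were -1.31, -0.40 and 0.60, since the pseudocount damps the low genes Slco1a1, Abcc4 and Slc51b. The make-up of the uptake sum changed with its size. Slco1b2 was its largest part in every Het liver. It made up 47.3% to 53.5% in Het males and 40.4% to 44.5% in KO males. In females these shares were 47.8% to 52.5% for Het and 31.1% to 42.3% for KO. Slco1a1 made up 14.8% to 18.6% of the sum in Het males and 0.12% to 0.467% in KO males, and 0.453% to 6.59% in Het females and 0.0147% to 0.0448% in KO females. Slco1a4 made up 3.04% to 5.5% in Het males and 15.4% to 18.6% in KO males, and 9.85% to 14.6% in Het females and 17.1% to 45.5% in KO females. Slc10a1 held 24.9% to 29.4% in Het males and 39.4% to 40.9% in KO males, whereas its shares overlapped in females, at 31.3% to 37.1% for Het and 23.4% to 41.9% for KO females.

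Genes with the most similar pattern were sought by the root mean square difference of log2 CPM over the 12 livers, each gene centred on its own mean. Slco1a1 varied by 3.85 about its mean, and the nearest genes were Mup3 (1.14), Mup11 (1.26) and Mup14 (1.28). These encode major urinary proteins, and their reads are uncertain because the members of this family are nearly identical. Slc10a1 varied by 0.418, and the nearest were Mgam (0.113), Gm44250 (0.114) and Taco1 (0.119). Abcb11 varied by 0.455, and the nearest were Fndc4 (0.162), Gpx1 (0.165) and Tst (0.167). Slc51b varied by 1.34, and the nearest were Ly6c1 (0.411), Tmprss4 (0.487) and 1700027J07Rik (0.495). The distances come from the same 12 livers as the genotype comparison and are a description.

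The other genes of the pathway were read by 5 lists, against 12.2% higher, 10.2% lower and a median log2 fold change of 0.02 over all tested genes. Of 21 tested genes of bile acid sensing and transcriptional control, 1 rose and 6 fell, with a median of -0.29. Nr1h4, the gene of FXR, fell from 101 ± 7.37 to 50.2 ± 12.9 CPM (SD, n = 6), a log2 fold change of -1.03 (SE 0.159, adjusted p = 0.00127) without overlap of the genotypes. Cebpa, a transcription factor of hepatocyte metabolism, fell by 1.104 on the log2 scale (adjusted p = 0.000586). Nr0b2, the repressor SHP that FXR induces, fell by 0.59 (adjusted p = 0.028), with overlap. Hnf4a, a nuclear receptor of hepatocyte identity, was not called (-0.06, adjusted p = 0.789).

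Of 19 genes of bile acid synthesis, 3 rose and 8 fell, with a median of -0.31. Cyp39a1, a 7-alpha-hydroxylase of 24-hydroxycholesterol, rose from 18.7 ± 11.7 to 60.1 ± 32.6 CPM (log2 fold change 1.86, adjusted p = 3.82e-05). Cyp46a1, which makes that oxysterol, fell from 3.34 ± 1.12 to 0.596 ± 0.256 CPM (-2.41, adjusted p = 4.4e-05). Cyp7a1, the rate-limiting enzyme of the classic pathway, was at 186 ± 209 CPM in Het and 168 ± 59.2 CPM in KO livers (log2 fold change 0.08, adjusted p = 0.931). This value averages -0.83 in females (edgeR adjusted p = 0.481) and 0.98 in males (adjusted p = 0.447). The interaction of genotype and sex was not called for Cyp7a1 (adjusted p = 0.605). Cyp8b1, the 12-alpha-hydroxylase of cholic acid synthesis, was at 138 ± 76.0 and 62.3 ± 48.4 CPM (-1.21, adjusted p = 0.122). Both varied widely between livers of 1 genotype.

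Of 10 other canalicular transporters, 2 rose and 0 fell, with a median of -0.04. Abcb1a, the drug pump MDR1A, rose from 9.20 ± 5.77 to 18.2 ± 7.21 CPM (1.13, adjusted p = 0.00155), and Abcg5, a subunit of the sterol exporter, rose from 80.3 ± 21.6 to 129 ± 20.6 CPM (0.69, adjusted p = 0.0123). Abcb4, which moves phosphatidylcholine into bile, was at 322 ± 70.0 and 294 ± 55.2 CPM (-0.13, adjusted p = 0.614). Atp8b1, an aminophospholipid flippase, was at 64.2 ± 12.1 and 51.7 ± 5.40 CPM (-0.31, adjusted p = 0.115). Of the 17 tested genes among 19 other sinusoidal and organic ion transporters, 1 rose and 3 fell, with a median of 0.29, and the falls with the smallest p were those of Abcc6 (-0.60, adjusted p = 0.00248) and Slc10a5 (-0.58, adjusted p = 0.00417). Of 18 tested genes of canalicular scaffold and trafficking, 0 rose and 2 fell, with a median of -0.12. These were Rdx, encoding radixin, which anchors canalicular proteins to actin (-0.68, adjusted p = 0.000671), and Pdzk1, a scaffold protein for transporters (-0.97, adjusted p = 0.00872). The other 16 were not called.

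**Figure D4:**
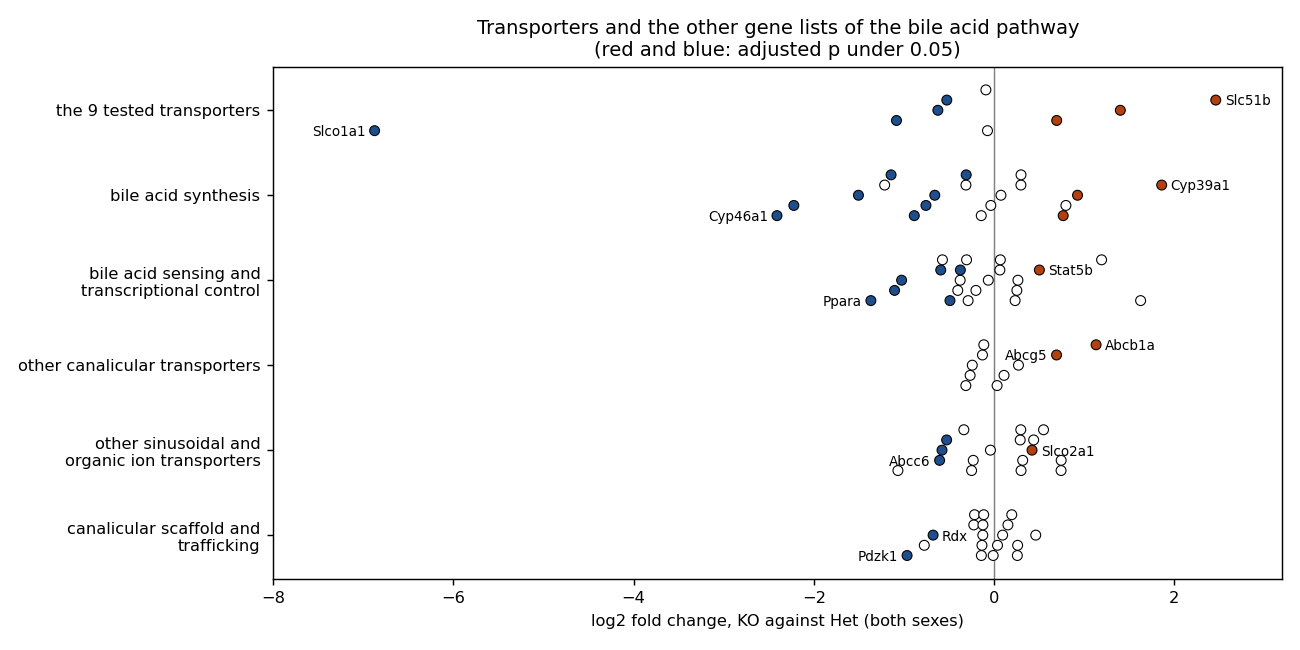
Log2 fold change of KO against Het livers over both sexes for the 9 tested transporters and for the tested genes of 5 lists of the bile acid pathway, 1 point a gene. Red and blue points have an adjusted p under 0.05, and the labelled genes are the called genes with the lowest and highest value of each row. Among canalicular transporters other than Abcb11 and Abcc2, 2 rose and 0 fell.

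Markers of other cell types also moved between genotypes. Of 6 stellate cell markers 3 fell, with a summed level of 214 to 409 CPM in Het and 110 to 220 CPM in KO livers. Of 5 erythroid markers 1 fell, of 2 tested neutrophil markers 1 rose, and the only tested marker of exocrine pancreas and the only tested marker of proximal tubule each fell. Cpa1, Pnlip, Prss1 and Try5 of the pancreas and Slc12a1 of the kidney were at 0 in all livers, and Slc34a1, Kap and Umod reached at most 2 counts. The part of these cells in the transporter values was not tested.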

How the data were processed

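Total RNA of 12 livers was depleted of ribosomal RNA and sequenced as stranded pairs. The authors aligned reads with STAR 2.7.9a to GRCm39, in an nf-core pipeline with GENCODE M34, and deposited estimated counts per gene from Salmon 1.10.1, 2 further estimated count tables scaled to TPM and library size, and TPM. The estimated counts were rounded here, and genes reaching 5 reads in 3 or more livers, after scaling to median library size, were tested with edgeR 4.0.16 in R 4.3.3 (TMM, quasi-likelihood F test, robust estimation, prior count of 2, a mean for each of 4 groups, Benjamini-Hochberg adjustment over all 19350 genes). TPM is length-scaled and keeps no depth. The newer quasi-likelihood method was used, not the older one that is the default of this edgeR version. Standard errors came from the F statistic. Coordinates come from GENCODE M39. The genes named are the 10 members, 2 called genes of smallest p per pathway list, Cyp7a1, Cyp8b1, Nr1h4, Nr0b2, Abcb4 and Atp8b1, and the 3 genes nearest in pattern to 4 members. Hnf4a and the genes of the closing observations, were named after their values were seen. A gene of each of 2 pathway lists was left out of its list and is not reported here. The members and lists were chosen with earlier results of these data known. Replicates are separate mice. Intervals and limits on counts cover no error beyond that modelled from these livers. Alternatives used DESeq2 1.42.0, limma 3.58.1, other scalings, filters and count tables, and omission of each mouse. The fit was also run on simulated data without sex effects, and no result here rests on that run.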

Additional observations from a re-analysis of the deposited data

Results flagged for a closer look

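In each genotype the highest and lowest of the 6 livers were compared with their nearest neighbours for the 9 tested genes by Dixon's test, 18 groups in all, of which chance flags about 1 in 20. A single value stood apart. KO_F_108 had 305 CPM of Slco1a4, and its gap to the next KO liver was 0.765 of the range of the KO livers, above the 95% critical value for 6 livers. The same liver had the lowest Slc10a1, Slco1b2, Slco1a1 and Abcb11 (235 CPM) and the highest Abcc4 of all 6 KO livers. Its Abcc3 was the highest by a narrow margin (535 against 531 CPM in KO_M_118), and its Abcc2 and Slc51b were at neither end. No cause was tested.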

How the results depend on the processing

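Over 1133 repeats of the log2 fold changes of the 9 genes under the alternatives, 1077 stayed on the same side of the threshold. Of the others, 45 lost a call and 11 gained one, and 0 calls changed sign. Values that were called in neither fit could change sign and are counted among the 1077. That of Slco1a4 in females, 0.31 in the main fit, reached -0.10 with a mouse left out. The genotype calls over both sexes of Slco1a1, Slco1b2, Abcc4 and Slc51b held in every alternative that tested them, whereas those of Slc10a1, Slco1a4 and Abcb11 did not hold without single mice. The number of genes called for genotype ran from 4 to 7 with a mouse left out (4 without KO_M_118 or KO_M_136), in females from 4 to 6 and in males from 3 to 5 (3 without Het_M_119 or Het_M_137). For sex it ran from 1 to 2 (2 without Het_F_126 or KO_F_123). With at least 10 reads in every sample it was 2 in females and 3 in males, since Slco1a1 and Slc51b fail that filter and, in females, Slc10a1 lost its call (adjusted p = 0.0517). For sex it was 3 by DESeq2 and 2 by limma on log2(TPM + 0.1), and the cause was not tested. On log2(TPM + 1) the role differences were -1.31 for uptake and 0.60 for basolateral export, damped by the pseudocount, and limma on that scale gave -4.29 for Slco1a1 and 0.97 for Slc51b. The older quasi-likelihood method, the default of this edgeR version, was not used in the main fit and was added after seeing the data. It took the females' Slc10a1 to an adjusted p of 0.0532, so that this call was lost. Over all genes, the sex calls numbered 725 by DESeq2 against 197, the male genotype calls 2260 against 1441, and with a mouse left out the genotype calls ran from 844 (without KO_F_108) to 2720 in females, against 2135, and from 539 (without Het_M_125) to 1876 in males. The females' count fell by over 1.5 times without any female other than KO_F_123, and the males' count without any male other than KO_M_122. Genotype calls over both sexes ran from 3194 to 4290 of all genes with a mouse left out, against 4330. Sex calls ran from 113 (without KO_M_118) to 340 (without Het_F_126), and the interaction calls, over all alternatives, between 4 and 162 against 9. No scaling moved the median of all genes by more than 0.03 on the log2 scale. No paired analysis was possible because the mouse numbers are unique and the groups share none. With 3 livers in a group, effects of the size of Slc10a1 or Abcb11 lie near the threshold, and counts of 9 or fewer limit Slc51b in Het livers and Slc51a in all.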

Other observations

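Several genes of bile acid synthesis outside those named above were called as well, and they are given as values chosen after they were seen. Cyp7b1, the oxysterol hydroxylase of the alternative pathway, went from 178 ± 153 to 28.4 ± 14.4 CPM (SD, n = 6, log2 fold change -2.22, edgeR adjusted p = 0.000161), with overlap of the genotypes. Scp2, Hsd17b4 and Acot8, which take part in the peroxisomal shortening of the side chain, fell by 1.14, 0.76 and 0.66 on the log2 scale (adjusted p = 0.000512, 0.00238 and 0.00481), each without overlap. Acox2, the oxidase of the same route, rose by 0.77 (adjusted p = 0.00195), also without overlap. Cyp2c70, which makes muricholic acids in mice, rose from 344 ± 99.1 to 653 ± 97.1 CPM (0.93, adjusted p = 0.00797).

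Among regulators, Ppara fell by 1.37 (adjusted p = 0.00207), Nr1h3 by 0.49 (adjusted p = 0.00199) and Rxra, the partner of FXR, by 0.37 (adjusted p = 0.0264). Stat5b was the called gene of this list that rose (0.50, adjusted p = 0.00405), from 55.6 ± 3.42 to 78.8 ± 9.80 CPM without overlap.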
